A study of Mus musculus with 6 samples.

Results

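Paneth cell products are the proteins that granulated cells at the base of the small-intestinal crypt make and secrete, and 10 of their genes were followed here: Lyz1, Lyz2, Ang4, Mmp7, Itln1, Defa17, Defa24, Reg3b, Reg3g and Wnt3. They were chosen by gene symbol from the 23127 genes of the deposited table, and each symbol matched 1 gene. The libraries came from small-intestinal cells of C57BL/6 Lgr5-GFP mice sorted for high GFP, a reporter read from the stem cell gene Lgr5. The 3 IFNg libraries held such cells kept for 1.5 h with 1 ng/ml interferon gamma (IFNg) in medium with EGF, noggin and R-spondin1, and the 3 untreated libraries, whose titles give the same time, are labelled as having no treatment. No sorted Paneth cells were analysed here, so the values are those of Paneth products in cells gated as stem cells. The labels do not say whether libraries came from separate mice, so a p-value here reflects the spread between libraries only, and that spread may be technical. Libraries are named by their title numbers: untreated 5, 1 and 9, and IFNg 6, 2 and 10. Titles of untreated 5 and IFNg 6 carry the tag GFP1, those of the other 4 carry GFP3, and the labels do not say what the tag means.

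Paneth cells lie between the Lgr5 stem cells and release lysozyme, alpha-defensins and other antibacterial proteins into the crypt. They also give their neighbours growth signals, among them the Wnt ligand Wnt3. IFNg is a lymphocyte cytokine, and in organoid cultures it is known to make Paneth cells release their granules. Reg3b and Reg3g are made by Paneth cells and by enterocytes, and interleukin 22 and bacteria are known to raise them.

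The libraries held 28508762 to 40224497 reads in genes, and 1 read was worth 0.853 to 1.05 scaled counts (reads divided by the authors' size factor of the library). IFNg exposure showed in Irf1, an early interferon-induced transcription factor, which stood at 1718, 1726 and 1876 scaled counts in untreated 5, 1 and 9 and at 55019, 66943 and 56965 in IFNg 6, 2 and 10. Of the crypt stem cell list 11 of 11 genes were tested for IFNg against untreated and 0 passed, beside 0.429% of all genes, so this count says little. At an unadjusted limma p under 0.05 there were 2 of 11, beside 9.22% of all genes. Olfm4, its most abundant gene, held 219689 to 266604 scaled counts. Smoc2 averaged 9741 in untreated and 21417 in IFNg libraries, and Ascl2 358 and 686, with overlapping groups. Estimates lay below 0 for 8 of 11, and Znrf3 was lower with IFNg without overlap (396 and 260). All 6 libraries are described as sorted for high GFP, so that gate has no comparison here. The labels do not say whether gating differed between the title tags. The first principal component over all tested genes took 35.2% of the variance and separated the 2 GFP1 libraries from the 4 GFP3 libraries. In bulk RNA of this kind, fewer cells of a type and less RNA per cell cannot be told apart.

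Together the 10 genes took 0.142% of the reads in genes in IFNg 6 (95% Wilson interval 0.141 to 0.143) and 1.15% in untreated 9 (1.15 to 1.15), with the other libraries in between. These intervals and the floor of 3 reads cover counting error only, since amplified reads without molecular identifiers are not independent molecules. Per kilobase of exon, Defa24 was the highest of the 10 in every library and ranked between 2 and 61 among all genes of a library. Untreated means per kilobase were 156314 ± 109096 scaled counts (SD, n = 3) for Defa24, 58535 ± 36711 for Lyz1 and 45276 ± 29749 for Itln1. The next levels on this scale were 9638 ± 8201 for Defa17, 6482 ± 2973 for Ang4 and 5888 ± 4456 for Mmp7. Reg3b followed with 3860 ± 3732 and Reg3g with 2420 ± 1635, and Wnt3 with 103 ± 56.6 and Lyz2 with 15.0 ± 7.91 came last. The order held in 6 of 6 libraries at each step except 3: Defa17 stood above Ang4 in 4, Ang4 above Mmp7 in 3, and Mmp7 above Reg3b in 4. Untreated ranges of neighbours in this order overlapped everywhere except between Reg3g and Wnt3 and between Wnt3 and Lyz2. The place of Defa17 is uncertain, since 92.0% of the 50-base stretches of its transcripts also occur in another gene.

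**Figure D1:**
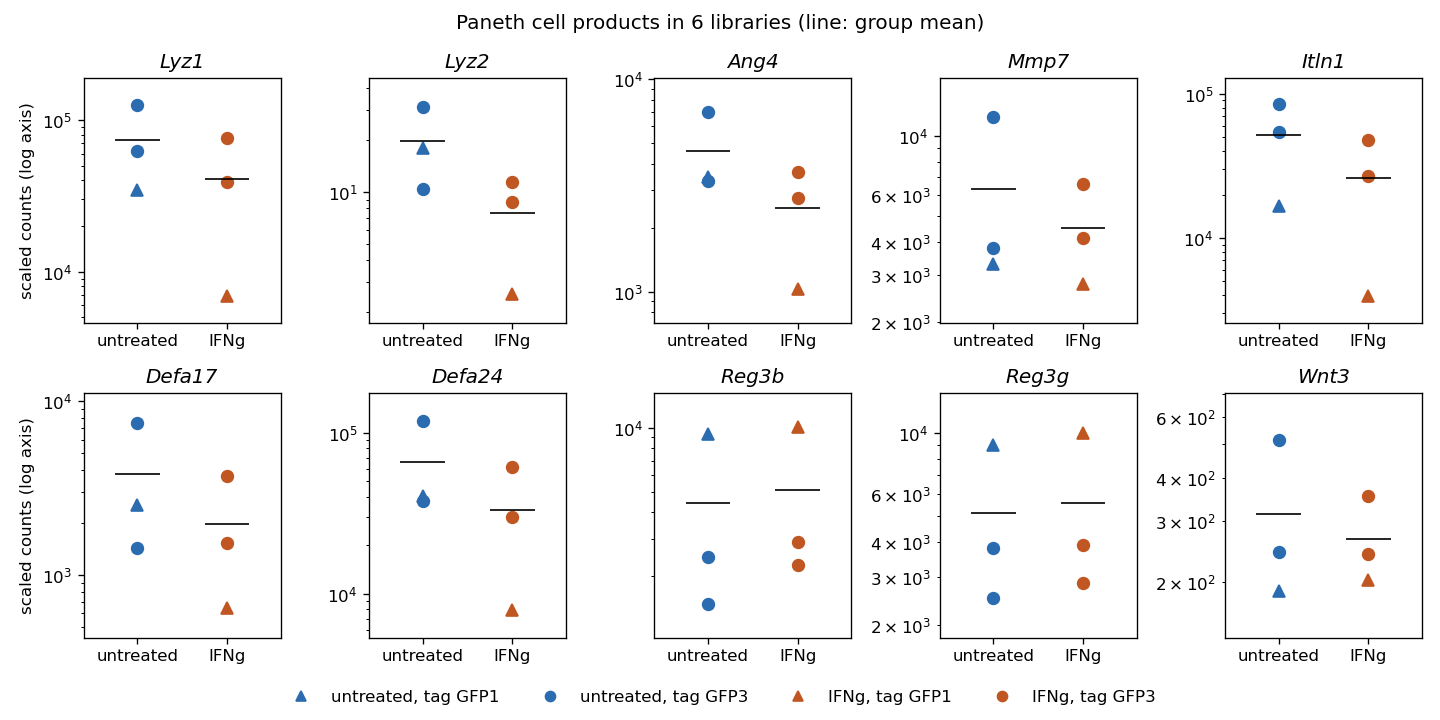
Scaled counts of the 10 Paneth products (vertical log axis, 1 panel a gene) in 3 untreated and 3 IFNg libraries. Triangles are the GFP1 libraries, circles the GFP3 libraries, and lines the group means. Groups overlap in 10 of 10 panels, and the triangles of Reg3b and Reg3g lie above the circles while those of Lyz1 and Itln1 lie below them.

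None of the 10 products passed the test of IFNg against untreated. In limma on log2(scaled count + 1), with Benjamini-Hochberg adjustment over the 16095 genes that averaged 10 scaled counts or more, 0 of 10 passed an adjusted p of 0.05, beside 0.429% of all genes tested (0.416% higher and 0.0124% lower). At an unadjusted p under 0.05 the count was also 0 of 10, against 9.22% of all genes. In edgeR 0 of 10 passed (0.373% of all genes), and in DESeq2 0 of 9 with an adjusted p (2.89%), Lyz2 having none there. All 10 passed the filter on low values. The ranges of the 2 groups overlapped for 10 of 10 products, where 13.2% of all genes tested showed no overlap (5.06% with IFNg lower and 8.13% with IFNg higher). Point estimates lay below 0 for 8 of 10 products with a median log2 difference of -0.98, while 57.1% of all genes lay below 0 with a median of -0.08. That median over the products was -0.34 when IFNg 6 was left out and -0.47 without untreated 9, and the estimates of Mmp7, Reg3b, Reg3g and Wnt3 changed sign when 1 library or another was left out. With libraries taken in the pairs 5 and 6, 1 and 2, and 9 and 10, the IFNg library was the lower one in every pair for 5 of 10 products and for 22.4% of all genes tested.

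**Figure D2:**
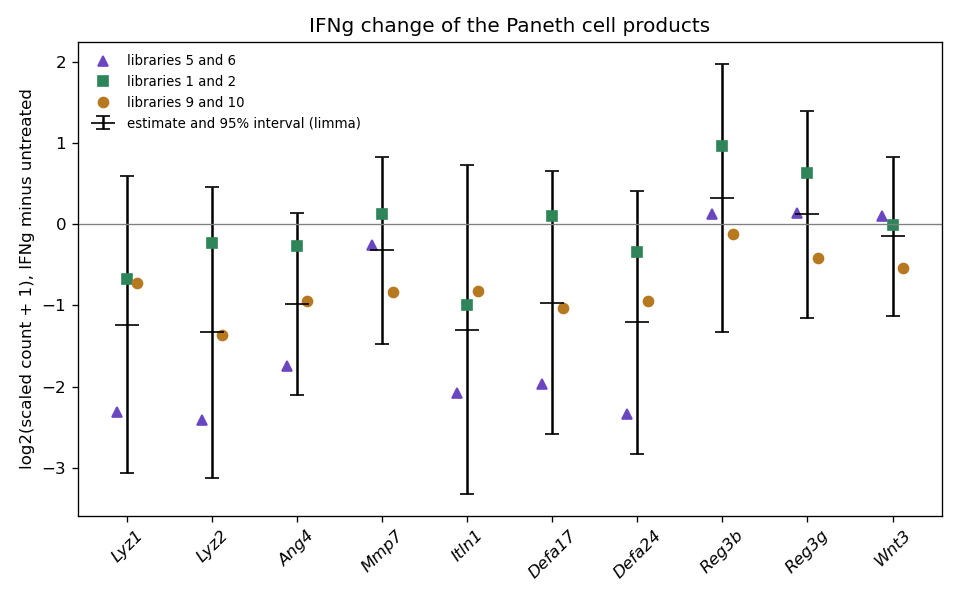
Difference between IFNg and untreated libraries on the log2(scaled count + 1) scale for the 10 products. Black bars are limma estimates with 95% intervals, and coloured points the differences within the library pairs 5 and 6, 1 and 2, and 9 and 10. All 10 intervals cross 0, and the pair 5 and 6 gives the lowest point for 6 products.

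Lysozymes cut the peptidoglycan of bacterial cell walls. Lyz1 (mm10, minus strand of chromosome 10, 117287797 to 117292868) encodes the form stored in Paneth granules, and Lyz2 (same strand, 117277331 to 117282321) the form of macrophages and neutrophils. The 2 coding sequences differ at 22 of 444 bases, so stretches further upstream of each start are shown, where the 2 genes have less in common. The last 49 bases before each start are the same in both genes and are not printed. For Lyz2 the start used lies 49 bases inside the gene coordinates given above. Bases -250 to -50 before the transcription start come from the RefSeq promoter table (GRCm38.p6, minus strand of chromosome 10, 117292918 to 117293118 for Lyz1 and 117282322 to 117282522 for Lyz2). Capitals mark runs of at least 12 bases that both share, 39 of the 201 bases.
Lyz1: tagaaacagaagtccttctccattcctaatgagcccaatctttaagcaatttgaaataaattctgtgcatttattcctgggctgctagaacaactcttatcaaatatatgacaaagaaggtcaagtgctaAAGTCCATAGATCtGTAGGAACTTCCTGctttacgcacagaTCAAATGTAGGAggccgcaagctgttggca
Lyz2: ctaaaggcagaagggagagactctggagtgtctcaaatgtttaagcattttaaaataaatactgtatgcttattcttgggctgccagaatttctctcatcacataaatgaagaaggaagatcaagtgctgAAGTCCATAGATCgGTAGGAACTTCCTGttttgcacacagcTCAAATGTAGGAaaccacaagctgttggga

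Lyz1 stood at 34590 scaled counts in untreated 5, 62150 in untreated 1 and 125048 in untreated 9, and at 6940 in IFNg 6, 39045 in IFNg 2 and 75657 in IFNg 10. IFNg 6 lay below every other library, IFNg 10 above 2 untreated ones, and the highest library exceeded the lowest 18.0-fold. Means were 73929 ± 46365 and 40547 ± 34383 scaled counts (SD, n = 3 each), a log2 difference of -1.24 ± 0.81 (SE; 95% interval -3.07 to 0.59; limma adjusted p = 0.821). With 1 library left out it ran from -1.97 (without IFNg 10) to -0.25 (without IFNg 6).

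Lyz2 was counted with 17, 12 and 30 reads in untreated 5, 1 and 9 and with 3, 9 and 13 reads in IFNg 6, 2 and 10. The IFNg 6 value is at the floor of 3 reads. On the scaled scale the means were 19.7 ± 10.4 and 7.55 ± 4.53, with a log2 difference of -1.33 (95% interval -3.13 to 0.46; limma adjusted p = 0.765), and of -0.79 without IFNg 6. Lyz1 exceeded Lyz2 in scaled counts by 1931-fold in untreated 5 up to 6633-fold in IFNg 10. Of the 50-base stretches of their transcripts, 16.1% for Lyz1 and 15.4% for Lyz2 occur in both, and reads from these may be missing from either count. The few Lyz2 reads stand beside 8137 to 121417 reads of Lyz1 in a library and are uncertain. Whether some of them are misplaced Lyz1 reads was not tested. Of 10 macrophage and leukocyte markers 7 are in the table and 6 were tested, with 0 passing in limma, beside 0.429% of all genes. Adgre1, Fcer1g and Tyrobp were not analysed here. Their summed level was 1231 to 1547 scaled counts in untreated and 1222 to 1446 in IFNg libraries, most of it Cd14. Mpeg1, a macrophage gene of that list, stood at 0, 0 and 12.4 scaled counts in untreated 5, 1 and 9 and at 44.3, 45.3 and 64.0 in IFNg 6, 2 and 10. Its groups did not overlap, its limma adjusted p was 0.244, and it passed only without untreated 9 (0.0463). The part of such cells in the Lyz2 values was not tested.

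Itln1 (mm10, chromosome 1, minus strand, 171518122 to 171535294) encodes intelectin, a lectin that binds microbial sugars. It stood at 16564, 54095 and 84321 scaled counts in untreated 5, 1 and 9 and at 3930, 27093 and 47533 in IFNg 6, 2 and 10. As for Lyz1, IFNg 6 was lowest and untreated 5 second lowest, and the highest library exceeded the lowest 21.5-fold, the widest span of the 10 products. The log2 difference was -1.30 ± 0.90 (SE; 95% interval -3.33 to 0.73; limma adjusted p = 0.838), with the IFNg library lower in 3 of 3 pairs. Without IFNg 6 it was -0.24 and without IFNg 10 -2.03, the ends of its range with 1 library left out.

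Ang4 (mm10, chromosome 14, minus strand, 51763878 to 51773590) encodes angiogenin 4, a bactericidal protein of the ribonuclease family. Its values were 3447, 3311 and 7028 scaled counts in untreated 5, 1 and 9 and 1025, 2761 and 3649 in IFNg 6, 2 and 10. IFNg 10 lay above 2 untreated libraries, so the groups overlapped. The log2 difference was -0.99 ± 0.49 (SE; 95% interval -2.11 to 0.14), and its limma adjusted p of 0.641 was the lowest of the 10 products. Within pairs the log2 differences were -1.75, -0.26 and -0.95 for 5 and 6, 1 and 2, and 9 and 10. The overall difference was -0.44 without IFNg 6 and -0.63 without untreated 9.

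Mmp7 (mm10, chromosome 9, plus strand, 7692090 to 7699585) encodes matrilysin, the protease that cuts mouse alpha-defensin precursors into their active form. Values were 3298, 3791 and 11777 scaled counts in untreated 5, 1 and 9, and 2772, 4125 and 6586 in IFNg 6, 2 and 10. Untreated 9 stood above the other 5 libraries, which lay within 2772 to 6586. The log2 difference was -0.32 (95% interval -1.48 to 0.83; limma adjusted p = 0.928), and it was 0.26 without untreated 9. The minus-strand gene AV064505 overlaps 123 exonic bases of Mmp7, and the kit does not mark strand, so reads of both cannot be told apart there.

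Alpha-defensins, called cryptdins in the mouse, are small peptides that open bacterial membranes. Defa17 (mm10, chromosome 8, plus strand, 21655780 to 21656735) and Defa24 (same strand, 21734494 to 21735471) belong to a cluster of near-identical genes. Their coding sequences from GENCODE M21 (GRCm38, transcripts Defa17-201 and Defa24-201) are printed because reads must tell them apart by few bases. Capitals mark the 12 of 279 positions at which they differ.
Defa17: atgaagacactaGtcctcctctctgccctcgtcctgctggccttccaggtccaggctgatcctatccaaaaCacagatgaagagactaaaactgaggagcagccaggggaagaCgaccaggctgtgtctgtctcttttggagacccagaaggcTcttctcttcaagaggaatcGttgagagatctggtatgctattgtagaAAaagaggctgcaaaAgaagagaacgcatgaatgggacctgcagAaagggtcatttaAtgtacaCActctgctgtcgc
Defa24: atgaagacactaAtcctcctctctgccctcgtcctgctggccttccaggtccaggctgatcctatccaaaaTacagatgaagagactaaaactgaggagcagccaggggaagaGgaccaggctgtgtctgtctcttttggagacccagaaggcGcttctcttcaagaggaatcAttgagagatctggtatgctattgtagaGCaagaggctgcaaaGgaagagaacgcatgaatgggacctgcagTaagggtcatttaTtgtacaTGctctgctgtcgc

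The coding sequence of Defa3 is identical to that of Defa17, and 320 of the 348 stretches of 50 bases in Defa17 transcripts (92.0%) also occur in Defa3. In the RefSeq gene table Defa3 is listed as a synonym of Defa17, whereas the deposited table counts both. Defa24 differs from its closest relative Gm15284, which RefSeq calls Defa30, at 4 coding bases, and 28.1% of its stretches occur in another gene. Reads that fit several places equally well are held in a separate row of the table, which holds at least 18.5% of everything counted in a library. Levels of Defa17, and to a lesser extent of Defa24, are therefore uncertain.

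**Figure D3:**
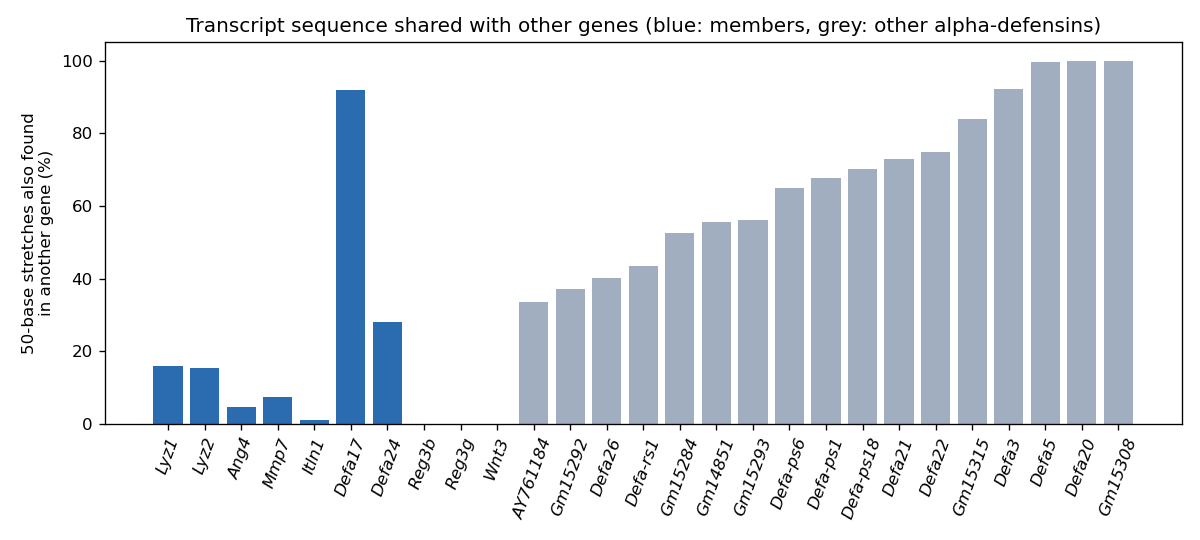
Share of the 50-base stretches of each gene's annotated transcripts that occur in another gene (vertical axis, percent), for the 10 products in blue and 17 other alpha-defensins in grey. Defa17 reaches 92.0%, the other 9 products stay at or below 28.1%, and 13 of the 17 other alpha-defensins lie above 50%.

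Defa24 stood at 40450.2, 37780.5 and 118256 scaled counts in untreated 5, 1 and 9 and at 7969, 29880 and 61428 in IFNg 6, 2 and 10. IFNg 10 exceeded 2 of the 3 untreated libraries. The log2 difference was -1.21 ± 0.71 (SE; 95% interval -2.83 to 0.41; limma adjusted p = 0.760), and it was -0.40 without IFNg 6, -0.68 without untreated 9 and -1.87 without IFNg 10. Defa17 stood at 2522, 1425 and 7532 in untreated 5, 1 and 9 and at 641, 1534 and 3694 in IFNg 6, 2 and 10. Here untreated 1 lay below IFNg 2, and the log2 difference was -0.96 (95% interval -2.59 to 0.66; limma adjusted p = 0.856). Leaving out untreated 9 gave -0.30, IFNg 6 -0.33, untreated 1 -1.50 and IFNg 10 -1.60.

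Of 19 further alpha-defensin symbols 17 are in the table and 16 were tested. In limma, edgeR and DESeq2 0 passed, beside 0.429%, 0.373% and 2.89% of all genes. In limma 1 had an unadjusted p under 0.05, beside 9.22% of all genes tested. All 16 estimates lay below 0, beside 57.1% of all genes, with a median log2 difference of -1.12. Groups without overlap were seen for 0 of 16, beside 13.2% of all genes. Gm15284 stood at 10735 ± 5644 scaled counts in untreated and 5158 ± 3182 in IFNg libraries (SD, n = 3 each; limma adjusted p = 0.656). AY761184, an alpha-defensin gene of the same cluster, stood at 9640 ± 7282 and 5240 ± 4883 (limma adjusted p = 0.832). The summed level of the list spanned 14719 to 56611 scaled counts in untreated and 4834 to 27492 in IFNg libraries, so the 2 ranges overlapped. Since 13 of 17 share over 50% of their stretches with another gene, their values are not independent of each other.

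Among 14 other granule and secretory genes of Paneth cells 0 passed, 0 had an unadjusted p under 0.05 and 12 estimates lay below 0. Of all genes, 0.429% passed in limma, 9.22% had such a p there and 57.1% lay below 0. The median log2 difference of the 14 was -0.54. The 2 most abundant, Spink4 and Cd24a, are not made by Paneth cells alone. Spink4, a protease inhibitor also known from goblet cells, stood at 24869 ± 16522 and 15946 ± 5582 scaled counts in untreated and IFNg libraries (limma adjusted p = 0.880). Cd24a, a surface protein used to sort Paneth cells, stood at 15767 ± 4436 and 16260 ± 3578 (limma adjusted p = 0.972).

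Reg3b and Reg3g encode C-type lectins that act mainly on Gram-negative and Gram-positive bacteria, respectively. They lie on chromosome 6 of mm10, Reg3b on the plus strand at 78370657 to 78373466 and Reg3g on the minus strand at 78466269 to 78468872, and 76.4% of their aligned coding bases are identical. No 50-base stretch of either occurs in another gene. The upstream sequence is shown because both genes moved together over the libraries and neither followed the granule products. Printed are the 153 bases that end 26 bases before the start in the RefSeq promoter table (GRCm38.p6, chromosome 6, 78370707 to 78370859 on the plus strand for Reg3b and 78468900 to 78469052 on the minus strand for Reg3g), with capitals for matches to TTCNNNGAA, the core of a gamma-activated site, and to CTTTGA, a T-cell factor core. The RefSeq start of Reg3b lies 228 bases inside the gene as GENCODE M21 annotates it, so its stretch is upstream of that start but within the first intron of a GENCODE transcript.
Reg3b: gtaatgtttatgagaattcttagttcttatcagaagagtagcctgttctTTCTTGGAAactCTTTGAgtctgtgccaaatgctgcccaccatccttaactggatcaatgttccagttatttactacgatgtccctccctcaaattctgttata
Reg3g: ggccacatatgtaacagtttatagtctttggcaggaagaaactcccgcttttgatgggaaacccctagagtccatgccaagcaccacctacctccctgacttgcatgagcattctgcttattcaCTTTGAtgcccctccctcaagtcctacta

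Promoters of 8 of the 10 products were in that table, all but Defa17 and Defa24. Over 250 bases upstream on both strands, TTCNNNGAA occurred in Reg3b and Ang4, and in 7.02% of 32851 promoters of that length. CTTTGA occurred in Reg3b and Reg3g, and in 13.8% of all. The core of an interferon-stimulated response element, TTTC followed by TTTC after any 2 bases, occurred in none of the 8 and in 2.98% of all. TATAAA occurred in Mmp7, Reg3b and Reg3g, and in 12.4% of all. These are matches of letters in a window, not measured binding sites.

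Reg3b stood at 9296 scaled counts in untreated 5, 1472 in untreated 1 and 2455 in untreated 9, and at 10123 in IFNg 6, 2887 in IFNg 2 and 2250.5 in IFNg 10. Both GFP1 libraries were high and all 4 GFP3 libraries low, in either treatment. The log2 difference between IFNg and untreated was 0.32 (95% interval -1.33 to 1.98; limma adjusted p = 0.949). Reg3g showed the same order of tags, with 9039, 2510 and 3800 in untreated 5, 1 and 9 and 9983, 3897 and 2854 in IFNg 6, 2 and 10. Its log2 difference was 0.12 (95% interval -1.15 to 1.39; limma adjusted p = 0.972). The ratio of Reg3b to Reg3g stayed between 0.586 and 1.03 over the 6 libraries.

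Wnt3 (mm10, chromosome 11, plus strand, 103774150 to 103817957) encodes the Wnt ligand that Paneth cells present to stem cells. It stood at 189, 243 and 514 scaled counts in untreated 5, 1 and 9 and at 203, 241 and 354 in IFNg 6, 2 and 10. Untreated 9 was the highest and the other 5 libraries spanned 189 to 354. The log2 difference was -0.15 (95% interval -1.12 to 0.83; limma adjusted p = 0.959). Its span of 2.73-fold between the lowest and highest library was the smallest of the 10 products.

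The profiles of the 10 products over the libraries were set side by side. Centred on each gene's mean log2 level over the 6 libraries, the nearest profile to Lyz1 was that of Itln1, with a root-mean-square difference of 0.27, and the nearest to Reg3b that of Reg3g, with 0.30. Ang4 and Lyz2 were nearest to each other (0.26), as were Mmp7 and Wnt3 (0.23), while Defa17 was nearest to Defa24 (0.33). Reg3b and Reg3g were also the 2 farthest from the mean profile of the 10, Reg3b at 1.48 and Reg3g next. These likenesses rest on 6 libraries that share their depth and scaling with every gene.

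**Figure D4:**
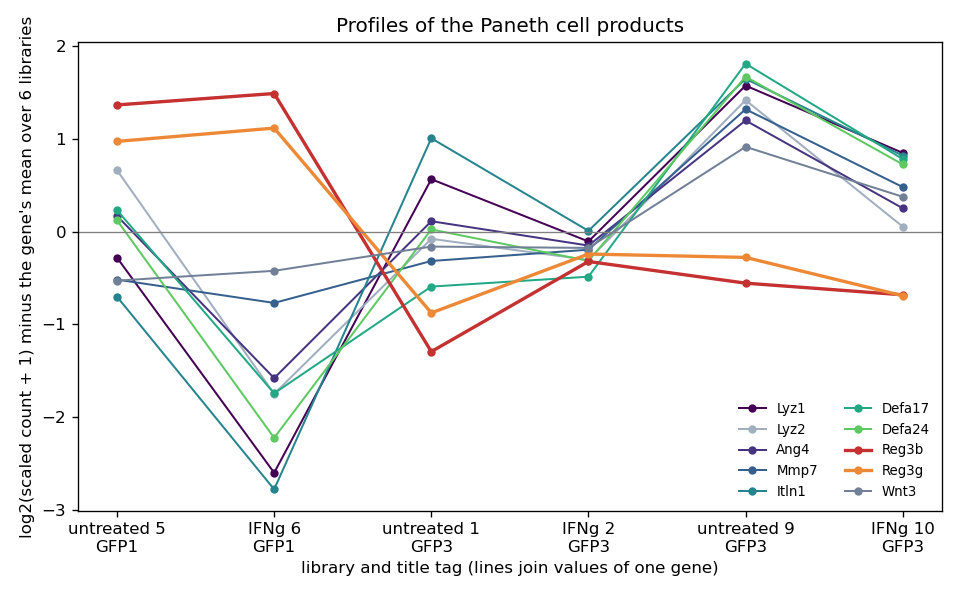
Log2(scaled count + 1) of each product minus its own mean over 6 libraries (vertical axis), with libraries ordered by pair and tag on the horizontal axis and lines joining values of 1 gene. Reg3b and Reg3g are above 0 in the 2 GFP1 libraries, whereas Lyz1, Itln1 and Mmp7 are below 0 in both.

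Treatment aside, the title tag was compared with an added term for GFP1 against GFP3, chosen after the values were seen and with 2 against 4 libraries. In this limma fit 4 of 10 products passed, beside 7.75% of all genes tested. In GFP1, 2 were higher, beside 2.28% of all genes, and 2 lower, beside 5.47%. Both GFP1 libraries form the pair 5 and 6, so this sets 1 pair against 2 while the fit takes the libraries as independent, and the tag and that pair cannot be told apart. A fit on the 3 pair means, added later, passed 7 of 10 products and 15.1% of all genes, but it has 1 residual degree of freedom and takes its spread almost wholly from other genes. Reg3b had a mean of 9709 scaled counts in GFP1 and 2266 in GFP3 libraries, a log2 difference of 2.14 ± 0.26 (SE; limma adjusted p = 0.0128). Reg3g was at 9511 and 3265.5, with a log2 difference of 1.57 (limma adjusted p = 0.0226). Itln1 was at 10247 in GFP1 and 53261 in GFP3 libraries, a log2 difference of -2.61 ± 0.35 (SE; limma adjusted p = 0.0166). Lyz1 was at 20765 and 75475, with a log2 difference of -2.16 (limma adjusted p = 0.0346). Leaving out each library in turn, Reg3b and Itln1 passed in 6 of 6 fits. Reg3g passed only without untreated 9 (0.0280) and without IFNg 2 (0.0430), with adjusted p-values up to 0.0591 otherwise, and Lyz1 only without untreated 5 (0.0350), with values up to 0.162.

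For 6 of 10 products the tags did not overlap at all, against 38% of all genes tested. The 6 products that did not pass the tag term had limma adjusted p-values of 0.110 for Defa24, 0.113 for Ang4, 0.183 for Mmp7, 0.249 for Wnt3, 0.315 for Defa17 and 0.537 for Lyz2. Whether the IFNg difference itself depended on the tag was fitted as an interaction, with 1 GFP1 library per treatment. There 0 of 10 passed (0% of all genes tested), with limma adjusted p-values of 0.395 to 0.991. At an unadjusted p under 0.05 the count was 0 of 10, against 13.2% of all genes. In the 4 GFP3 libraries alone, 0 of 10 products passed for IFNg, beside 8.27% of all genes as higher and 0.0681% as lower.

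Other Paneth genes also differed by tag. Among the other granule and secretory genes 3 of 14 passed, all lower in GFP1 where 5.47% of all genes were, with log2 differences of -3.45 for Habp2, -2.27 for Mptx2 and -2.16 for Pnliprp2 (limma adjusted p = 0.00680, 0.0128 and 0.0170). Leaving out each library in turn, Habp2 and Pnliprp2 passed in 6 of 6 fits and Mptx2 in 5 (0.0505 without untreated 1). None of the 16 other alpha-defensins passed the tag term. In the niche ligand list 4 of 10 were lower in GFP1, Tgfa, Dll1, Wnt9b and Ereg, and in the fate list 2 of 21, Bhlha15 and Ern2. With 1 library left out these 6 passed in 0 to 4 of 6 fits. Of the 12 genes around the IL-22 and STAT3 route 3 were lower: Il6st, Tyk2 and Reg4. Reg4, a relative of the Reg3 genes, was lower in GFP1 with a log2 difference of -2.44 (limma adjusted p = 0.0229), opposite in sign to Reg3b and Reg3g. It missed the threshold when untreated 5 (0.0733) or untreated 1 (0.0577) was left out. Lgr5, the gene behind the sorted reporter, was also lower in GFP1, with a log2 difference of -1.14 (limma adjusted p = 0.0346), though with 1 library left out it passed only without untreated 9 (0.0315) and reached 0.135 without untreated 5. In the crypt stem cell list, to which Lgr5 belongs, 2 of 11 genes passed, Lgr5 and Tnfrsf19 (limma adjusted p = 0.0455), both lower in GFP1. Tag estimates lay below 0 for 7 of these 11, beside 52.2% of all genes. Those of Ascl2, Slc12a2, Cdca7 and Axin2 lay above 0, and that of Olfm4 was -0.10, so the list did not move as 1. In the goblet list 2 of 8 genes were lower in GFP1, Clca1 and the mucus protein Fcgbp (log2 difference -2.66, limma adjusted p = 0.0287). In the enteroendocrine list 2 of 8 were lower (beside the same 5.47% of all genes), the granins Chga and Chgb. Each of these 4 passed in 2 of 6 fits with 1 library left out. Tag estimates lay below 0 for 4 of 8 goblet and 3 of 8 enteroendocrine genes, with Tff3 at 1.23 and Cck at 1.88. The part of these cells, and of whatever the tag stands for, in the products' values was not tested.

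The 6 granule products Lyz1, Itln1, Defa24, Mmp7, Ang4 and Defa17 were summed to see whether their mix held while their total moved. The sum spanned 23277 scaled counts in IFNg 6 to 353962 in untreated 9, a 15.2-fold range. Lyz1 made up 29.8% to 38.2% of it and Defa24 23.2% to 40.1%. Itln1 made up 16.4% in untreated 5, 16.9% in IFNg 6 and 23.8% to 33.3% in the GFP3 libraries. Mmp7 took 11.9% of the sum in IFNg 6 and 2.33% to 3.95% elsewhere, so its share was highest in the library with the smallest sum. The sum of Reg3b and Reg3g was equal to 0.0177 of the granule sum in untreated 9 and 0.864 of it in IFNg 6.

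**Figure D5:**
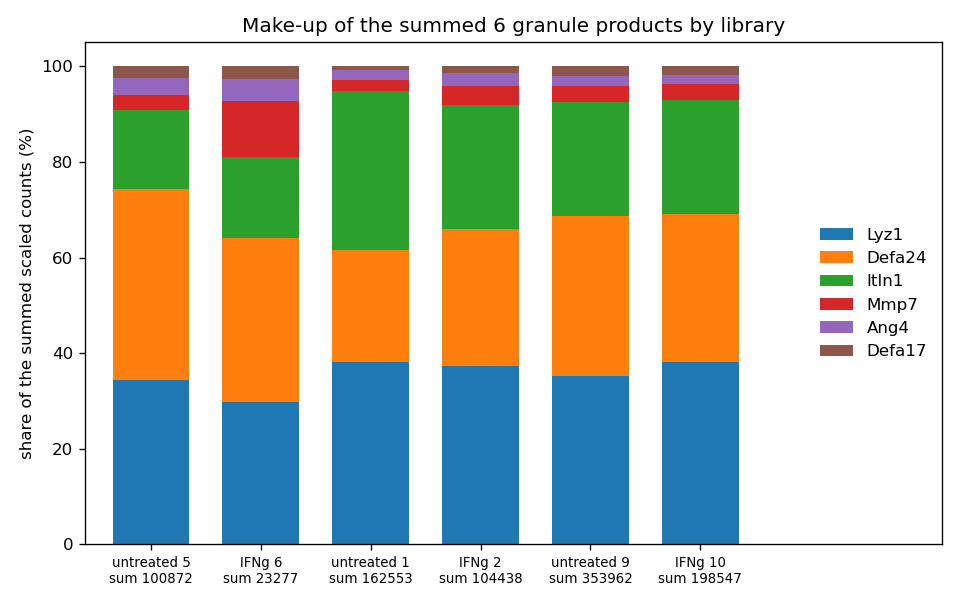
Shares of 6 granule products in their summed scaled counts (vertical axis, percent) for each library, with the sum printed under the library name. Lyz1 and Defa24 hold the 2 larger shares in every library except untreated 1, where Itln1 exceeds Defa24, while the sums run from 23277 to 353962.

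The 5 genes outside all lists whose centred profile lay nearest to the mean profile of the 10 products were Spats2l, Pla2g2f, Fhl1, Ctbs and Cald1. Their root-mean-square differences over 6 libraries were 0.17, 0.20, 0.23, 0.24 and 0.24 on the log2 scale, among the 11117 genes that averaged 100 scaled counts or more. Spats2l stood at 573, 576 and 1145 in untreated 5, 1 and 9 and at 330.1, 494 and 657 in IFNg 6, 2 and 10. It was picked for its likeness, so its lowest value in IFNg 6 and highest in untreated 9 follow from the choice. No test was attached to this likeness.

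Genes that Paneth cells use to signal to stem cells gave no pass in limma. Of 10 niche ligands and Wnt secretion genes tested 0 passed in limma and edgeR, beside 0.429% and 0.373% of all genes. Their median log2 difference was 0.22. In DESeq2 1 passed, beside 2.89% of all genes, and in limma 1 had an unadjusted p under 0.05, beside 9.22%. The gene in question was Areg, which encodes the EGF receptor ligand amphiregulin. It stood at 9758, 2552 and 3409 scaled counts in untreated 5, 1 and 9 and at 18626, 26256 and 23003 in IFNg 6, 2 and 10. Its groups did not overlap, yet its limma adjusted p was 0.111, against 0.00305 in DESeq2, 0.00261 without untreated 5 and 6.04e-04 in the GFP3 libraries alone. Wls, the carrier that brings Wnt proteins to the cell surface, stood at 5909 ± 1344 and 4894 ± 979 (SD, n = 3 each; limma adjusted p = 0.894).

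Among 21 regulators of Paneth fate and upkeep 0 passed in limma, edgeR or DESeq2, beside 0.429%, 0.373% and 2.89% of all genes. The median log2 difference was 0.09. In limma 4 of the 21 had an unadjusted p under 0.05, beside 9.22% of all genes tested. Hnf4a, a transcription factor of the gut lining, stood at 20573 ± 4366 and 16986 ± 2563 scaled counts (limma adjusted p = 0.891). Ctnnb1, the beta-catenin through which Wnt signals act, stood at 11078 ± 5238 and 26019 ± 6574 (limma adjusted p = 0.296), and it passed in the GFP3 libraries alone (0.00303) and without untreated 5 (0.0341). Ulk4 overlaps 759 exonic bases of Ctnnb1 on the other strand, and reads there may be held in the row of ambiguous reads instead of being counted for Ctnnb1. In those 4 libraries, 2 a group, 11 of the 73 other Paneth genes tested passed as higher, beside 8.27% of all genes.

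The other Reg genes and the IL-22, STAT3 and MyD88 route that is known to drive Reg3 expression held the 2 genes that passed in limma among all Paneth lists. Of 12 tested, 2 rose and 0 fell in limma, beside 0.416% and 0.0124% of all genes. In edgeR 2 passed and in DESeq2 3, beside 0.373% and 2.89% of all genes. Socs3, a feedback inhibitor of STAT3 signals, rose from 1830, 1178 and 731 scaled counts in untreated 5, 1 and 9 to 13211, 18505 and 14050 in IFNg 6, 2 and 10 (log2 3.70 ± 0.35 SE; limma adjusted p = 0.00140), and it passed under 17 of 17 alternatives. Myd88, the adaptor of Toll-like receptors, rose from 2518, 2907 and 2817 to 9427, 9186 and 7900 (log2 1.68 ± 0.23 SE; limma adjusted p = 0.0168). It did not pass without untreated 1 (0.0592), untreated 9 (0.110), IFNg 2 (0.163) or IFNg 10 (0.0787), nor with a prior that has neither trend nor robust fitting (0.0766), and its exons overlap 290 bases of Acaa1a on the other strand. Stat3 stood at 10052 ± 5501 and 25772 ± 6409 scaled counts (limma adjusted p = 0.296, but 0.0499 in DESeq2 and 0.0403 in the GFP3 libraries alone). Jak1, a kinase of both the IFNg and IL-22 receptors, stood at 11417 ± 3652 and 14920 ± 3499 (limma adjusted p = 0.866). In the same libraries Reg3b and Reg3g had log2 differences of 0.32 and 0.12.

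Markers of other cells were read beside these values. Since 0.429% of all genes tested passed in limma, a count of 0 in such short lists says little. Goblet markers gave 0 of 8 passing with a median log2 difference of -0.30, and a summed level of 78702 to 276590 scaled counts in untreated and 86611 to 173476 in IFNg libraries. Agr2 and Fcgbp were the most abundant of them. Enteroendocrine markers summed to 7251 to 17728 and 4657 to 15428, and enterocyte markers to 21953 to 30532 and 21020.3 to 26797, with 0 of 8 passing in each list. Tuft cell markers gave 0 of 5, with sums of 1549 to 2471 and 1978 to 2820. Of 6 T cell markers 2 are in the table, and they summed to 88.5 to 143 and 127 to 235. Most of that was Lck, the 1 tested. Stromal markers summed to 144 to 517 and 156 to 529, with 2 of 6 tested, Col1a2 and Vim. All of these ranges overlapped between the groups, and the part of other cells in the products' values was not tested.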

How the data were processed

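RNA was measured in 6 libraries of sorted Lgr5-GFP-high cells. Per the labels' protocols, 2 ng of total RNA was amplified for 12 cycles with SMART-Seq v4, and 10 ng of cDNA went through a KAPA Hyper preparation with 8 cycles. Per the submitters' processing notes, which give no roles, STAR 2.5.0a, cutadapt 1.6, DESeq 1.22.1 and HTSeq 0.5.3 were used with mm10. The deposited table holds a normalized signal, read counts scaled by a size factor per library, for 23127 genes and 4 rows that name no gene and were left out. Dividing by each library's step gave whole reads for 100% of 138762 values (within 0.01).

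Groups were compared with limma 3.58.1 (trend and robust) in R 4.3.3 on log2(scaled count + 1), among genes with a mean of at least 10, and fold changes on this scale understate those of low genes. edgeR 4.0.16 and DESeq2 1.42.0 on the recovered reads, pseudocounts of 10 and 0.5, other filters and TMM were among the 17 alternatives. The others were a replicate block, a tag block, the GFP3 libraries, a prior without trend or robust fitting, and leaving out each library. Deviations from group means correlated at 0.30, 0.40 and 0.25 over all genes in the number pairs 5 and 6, 1 and 2, and 9 and 10, so the consecutive numbers were taken to pair the libraries. That pairing comes from the data, not from the labels. The limma comparison of the 2 groups was tried on simulated data that held no tag or pair structure. The members, lists and tests were chosen with earlier results of these data known. Genes named beyond the 10 are, by rule, the 2 most abundant of each list, any that passed, and the 5 nearest profiles. Genes named for the tag, Lgr5, Reg4, Clca1, Chga, Chgb, Mpeg1, Habp2, Mptx2 and Pnliprp2 among them, were chosen after their values were seen. The same holds for Smoc2, Ascl2 and Znrf3 of the crypt stem cell list. Coordinates and lengths are from GENCODE M21 on GRCm38, the mm10 assembly.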

Additional observations from a re-analysis of the deposited data

How the results depend on the processing

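Of 169 values for the 10 products over 17 alternatives, 0 passed, and limma, edgeR or DESeq2 adjusted p-values ran from 0.185 to 0.999. With the replicate block, 0 of 10 passed, and the block changed no call named above. Estimates changed sign 7 times, each when 1 library was left out: Reg3b to -0.24 and Reg3g to -0.29 without untreated 1, Mmp7 to 0.26 and Wnt3 to 0.27 without untreated 9, and Reg3b to -0.34, Reg3g to -0.41 and Wnt3 to 0.03 without IFNg 6. With 1 library left out, these 4 ran from -0.66 to 0.26 for Mmp7, -0.34 to 1.09 for Reg3b, -0.41 to 0.64 for Reg3g and -0.45 to 0.27 for Wnt3. Leaving out 1 library moved the median over the products between -1.48 (without IFNg 10) and -0.34 (without IFNg 6), and it was -0.47 without untreated 9. The 69 genes that passed in limma over the whole table became 465 in DESeq2, 1348 in the GFP3 libraries and 111 with a tag block, and 42 (without IFNg 2) to 369 (without untreated 5) when 1 library was left out. The 2 other Paneth genes became 11 in the GFP3 libraries, 4 in DESeq2, 1 with no trend and no robust prior, and 1 to 4 with 1 library left out. The 4 products that differed by tag became 2 to 3 with 1 library left out and 7 on pair means. Some of these fits held fewer libraries, and the cause of the shifts was not tested. With 3 libraries a group, the narrowest interval, that of Wnt3, ran from -1.12 to 0.83, and every product's interval included a log2 difference of -1. Lyz2, at 3 to 30 reads, is limited by depth. DESeq2 gave no adjusted p for Lyz2, and the filter at a mean of 50 left it out.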
